A study of Mus musculus with 3 samples.

Results

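Contacts of the Ptch1 promoter in anterior forelimb and in posterior forelimb, each taken on its own, were set against those in telencephalon. The comparison used all 3 libraries of the series, 1 per tissue, and every position of the deposited profiles, of which 988 had a fold, 8 were at 0 in all libraries and 5 were empty. It was run in both directions. Tissue came from E11.5 mice with 44 to 45 somites. Forelimbs of 20 embryos, combined in 1 library per part, were cut into an anterior and a posterior part, and the vesicles of the telencephalon, the front of the developing brain, were taken alongside as the control tissue. The sources used here give no number of embryos for the telencephalon library, no strain and no sex, and no group carried an allele or drug that the labels mention. All cells were dissociated with collagenase and fixed in 2% formaldehyde for 10 min. The files hold DNA contacts and no expression, so the tissue labels were not checked against marker genes. With 1 library per tissue there was no replicate, no SD and no test, and every fold below compares these libraries. The libraries are of mixed cells, so fewer cells making a contact and a weaker contact in each cell cannot be told apart.

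Ptch1 encodes Patched1, the receptor that binds Hedgehog ligands and, without ligand, holds the pathway off. It is also a transcriptional target of the pathway through the GLI transcription factors, so its expression follows Hedgehog signalling. In the limb bud the ligand Sonic hedgehog is made in the posterior margin, and in the telencephalon it acts mainly in ventral territories. In 4C-seq, chromatin is fixed, cut and ligated, and the fragments joined to 1 chosen fragment, the viewpoint, are amplified and sequenced.

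The viewpoint was the NlaIII fragment at chr13:63667995-63669157 (mm9), 1163 bp long and inside the annotated span of Ptch1 (chr13:63610261-63674474, minus strand). Distances below are from the labelled position, 63669139, which lay 5.34 kb inside the most upstream annotated start of the gene. Lower coordinates run through the Ptch1 body to Fancc, a Fanconi anaemia gene, and higher coordinates run upstream across an intergenic stretch to Ercc6l2 and Hsd17b3. The 60 reference bases at each end of the fragment, plus strand, show the cut sites that bound the viewpoint, with the NlaIII recognition site in capitals.
Lower end, chr13:63667995-63668054: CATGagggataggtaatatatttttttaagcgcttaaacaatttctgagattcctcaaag
Higher end, chr13:63669098-63669157: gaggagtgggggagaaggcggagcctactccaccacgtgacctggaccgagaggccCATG

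The values are the authors' normalised 4C signal, summarised every 1 kb in sliding windows of 48 widths from 2 to 49 kb by a running median with a lower and an upper quantile. The upper quantile in 5 kb windows is used unless another is named. The most frequent value of this column was also its median, at 0.0245 in telencephalon (79.5% of positions), 0.0276 in anterior limb (77.3%) and 0.0269 in posterior limb (72.1%). These recurring values are called the repeated level here, and the sources used here do not say whether they were measured or filled in during processing. They were 1.12 times as high in anterior and 1.10 times as high in posterior limb as in telencephalon. Folds were therefore taken as deposited and again, called scaled, with every profile expressed relative to its own median. A fold or ratio not marked scaled is as deposited. Positions at or above 2 times the library's own median made up 19.3% of the profile in posterior limb, 14.2% in anterior limb and 13.5% in telencephalon.

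Next to the viewpoint all libraries were high and no difference was called. The highest value lay at 63665984, 3.16 kb into the gene body, with 214 in posterior limb, 274 in anterior limb and 160 in telencephalon. No position within 10 kb was 2-fold apart on both scales in any of the 4 comparisons. Upstream of the viewpoint and still inside the annotated gene, at 1.85 kb, posterior limb read 1.07, anterior limb 0.989 and telencephalon 1.00. At 6.16 kb into the body, anterior limb (0.672) and posterior limb (0.671) stood 2.18-fold above telencephalon (0.308) as deposited, and both fell short of 2-fold after scaling.

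A position was called where the fold reached 2 on both scales and the higher library was at or above its own median. Of 988 positions with a fold, 85 were called for posterior limb over telencephalon (8.60%) and 43 for anterior limb over telencephalon (4.35%). In the opposite direction 28 were called for telencephalon over anterior limb (2.83%) and 14 for telencephalon over posterior limb (1.42%). Posterior calls thus outnumbered the reverse calls by far, and anterior calls did so less clearly. The balance depended on the scale for anterior limb. As deposited, 51 anterior calls (5.16%) stood against 28 in telencephalon, and after scaling 43 stood against 45 (4.55%). For posterior limb the deposited folds called 10.6% of positions against the 14 of telencephalon, and the scaled folds 85 positions against 30 (3.04%), so the limb side was ahead on either. As a yardstick, the limb parts differed from each other at 87 positions with posterior higher (8.81%) and at 18 with anterior higher (1.82%). Both limb comparisons share the telencephalon library, so their calls are not independent of each other.

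**Figure D1:**
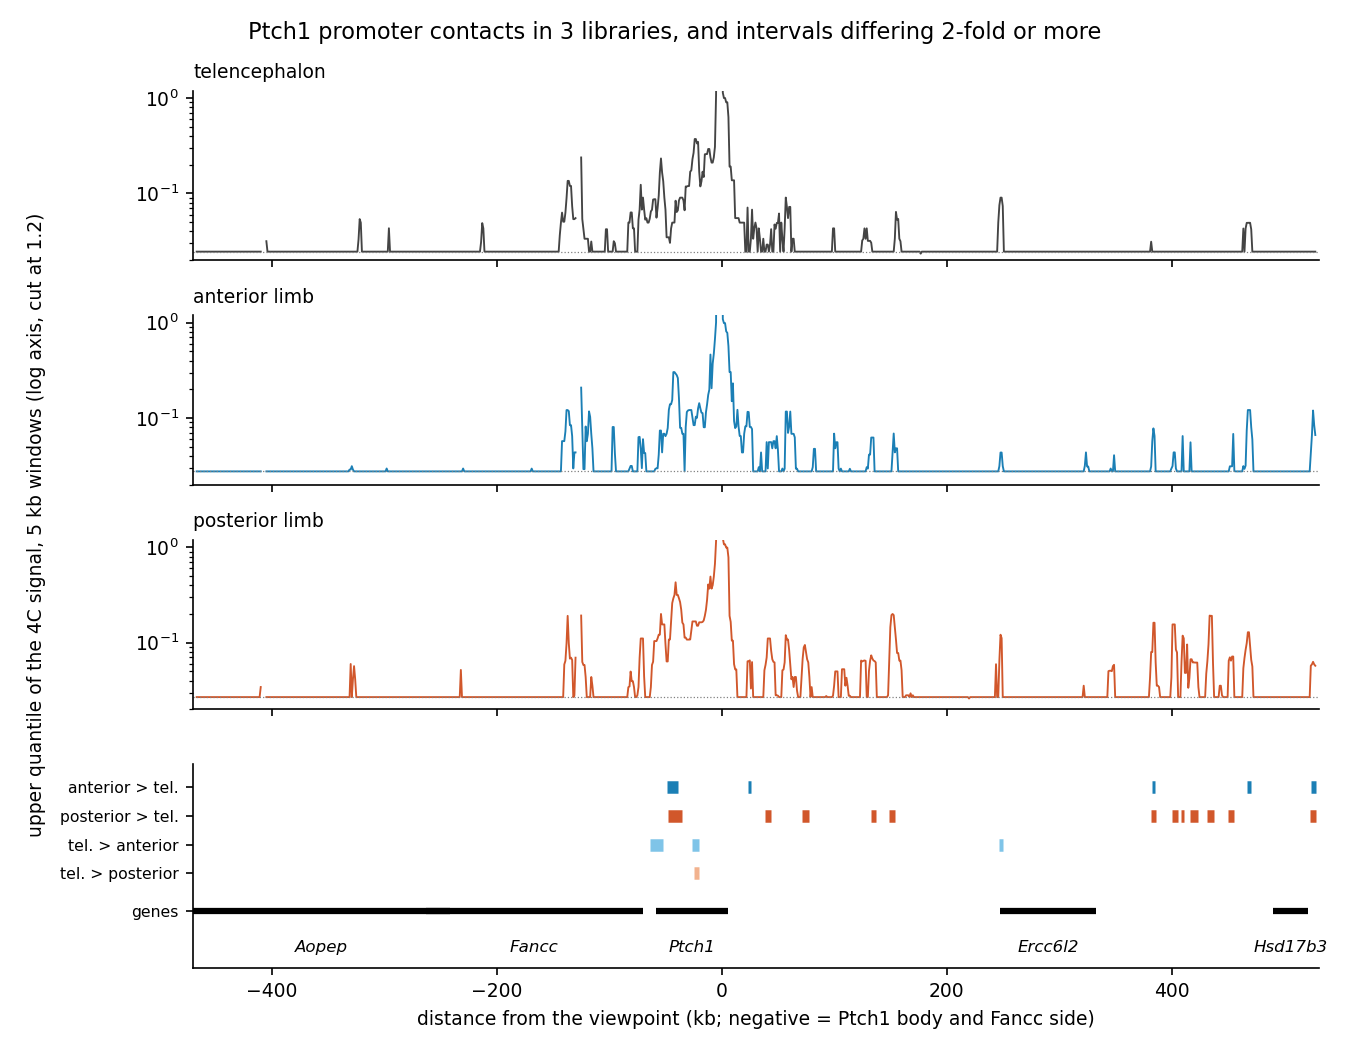
The upper quantile of the 4C signal in 5 kb windows (log axis, limited to 1.2) is plotted against distance from the viewpoint in kb for the 3 libraries, with dotted lines at each library's median, bars for the intervals in each direction and black bars for genes. Posterior limb has 11 of its 12 bars on the upstream side, and both telencephalon rows have bars inside Ptch1.

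The sides of the promoter are given with the 528 upstream and 460 gene-body positions that had a fold. Posterior limb was called at 71 upstream positions (13.4% of that side) and 14 on the gene-body side (3.04%). Anterior limb was called at 28 (5.30%) and 15 (3.26%), both near its 4.35% over all positions. Telencephalon was called over anterior limb at 5 upstream (0.947%) and 23 on the gene-body side (5.0%), and over posterior limb at 5 and 9 (1.96%). Of the 64 positions in the Ptch1 span, 10 were called for anterior limb, 12 for posterior limb, 14 for telencephalon over anterior limb and 4 for telencephalon over posterior limb, or 15.6%, 18.8%, 21.9% and 6.25%. Runs of at least 3 called positions gave 21 intervals, 5 for anterior limb, 12 for posterior limb, 3 for telencephalon over anterior limb and 1 for telencephalon over posterior limb. Neighbouring 5 kb windows overlap, so positions within a run share signal and are not repeated observations. The same holds for the counts of called positions.

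Inside the gene, both limb parts were called over telencephalon far along the body, and telencephalon over both limb parts at a stretch nearer to the promoter. The anterior limb interval ran from 63620984 to 63629984, 48.2 to 39.2 kb from the viewpoint and across exons 16 to 19 of the 23 exons of the reference transcript. Its mean signal was 0.238 in posterior limb, 0.208 in anterior limb and 0.0505 in telencephalon. Anterior limb was 4.11-fold above telencephalon as deposited and 3.66-fold scaled. Single positions ranged from 2.27-fold to 6.13-fold as deposited, and all 10 were called. Posterior limb, over these same positions, was 4.71-fold above telencephalon and 4.30-fold scaled.

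The posterior limb interval in the body ran from 63621984 to 63632984, 47.2 to 36.2 kb away and across exons 16 to 18. It held 0.258 in posterior limb, 0.193 in anterior limb and 0.0613 in telencephalon. Posterior limb was 4.21-fold above telencephalon and 3.84-fold scaled, between 2.46-fold and 6.39-fold at single positions. Both limb libraries were high here, and posterior limb stayed high over the 3 positions nearest the promoter. At 63631984, 37.2 kb away, posterior limb still read 0.266 while anterior limb read 0.0789, below the 0.0903 of telencephalon. The highest value of the interval was 0.429 in posterior limb, at 41.2 kb, where telencephalon read 0.0839 and anterior limb 0.292.

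The running median separated the limb parts more than the upper quantile did. Over the posterior interval it averaged 0.104 in posterior limb, 0.0500 in anterior limb and 0.0251 in telencephalon, so that posterior limb was 4.13-fold above telencephalon. At 9 of these 12 positions the running median of posterior limb lay above the upper quantile of telencephalon. The lower quantile of posterior limb did so at 1 position, and elsewhere the quantile ranges overlapped. Over the anterior interval, anterior limb had a running median of 0.0541 against 0.0245 in telencephalon, 2.21-fold. It lay above the upper quantile of telencephalon at 5 of 10 positions, and the quantile ranges overlapped at every position. The running median was 2-fold apart on both scales at 9 positions of the whole span for anterior limb (0.911%) and 13 for posterior limb (1.32%). In the reverse direction it was at 9 for telencephalon over anterior limb (0.911%) and 5 over posterior limb (0.506%).

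Closer to the promoter the order turned. From 63642984 to 63647984, 26.2 to 21.2 kb into the body and across exons 4 to 8, the mean signal was 0.161 in posterior limb, 0.0999 in anterior limb and 0.320 in telencephalon. Telencephalon was 3.20-fold above anterior limb as deposited and 3.60-fold scaled, with all 6 positions between 2.27-fold and 4.42-fold. The quantile ranges of telencephalon and anterior limb overlapped at every position. Against posterior limb the called stretch was shorter, from 63644984 to 63647984 across exons 4 to 6. There telencephalon read 0.356 and posterior limb 0.159, a 2.25-fold difference as deposited and 2.46-fold scaled, and anterior limb read 0.104.

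At the 3′ end of Ptch1 an interval was called for telencephalon over anterior limb and none over posterior limb. From 63605984 to 63615984, 63.2 to 53.2 kb away and reaching from exon 21 past the end of the gene, the mean was 0.107 in posterior limb, 0.0392 in anterior limb and 0.107 in telencephalon. Telencephalon was 2.73-fold above anterior limb and 3.07-fold scaled, while its ratio to posterior limb was 1.00. Of the 11 positions 10 were called, and anterior limb was at its repeated level at 4. Similar means were found at the start of Ercc6l2, from 63915984 to 63918984, 247 to 250 kb upstream. There the mean was 0.0811 in posterior limb, 0.0374 in anterior limb and 0.0824 in telencephalon, and telencephalon was 2.20-fold above anterior limb and 2.48-fold scaled. In both stretches the near-equal means of telencephalon and posterior limb average positions that went opposite ways. At 63918984 telencephalon read 0.0737 and posterior limb 0.0269, and at 63916984 they read 0.0903 and 0.121. At the 3′ end they read 0.0647 and 0.0342 at 63605984, and 0.0702 and 0.111 at 63611984.

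**Figure D2:**
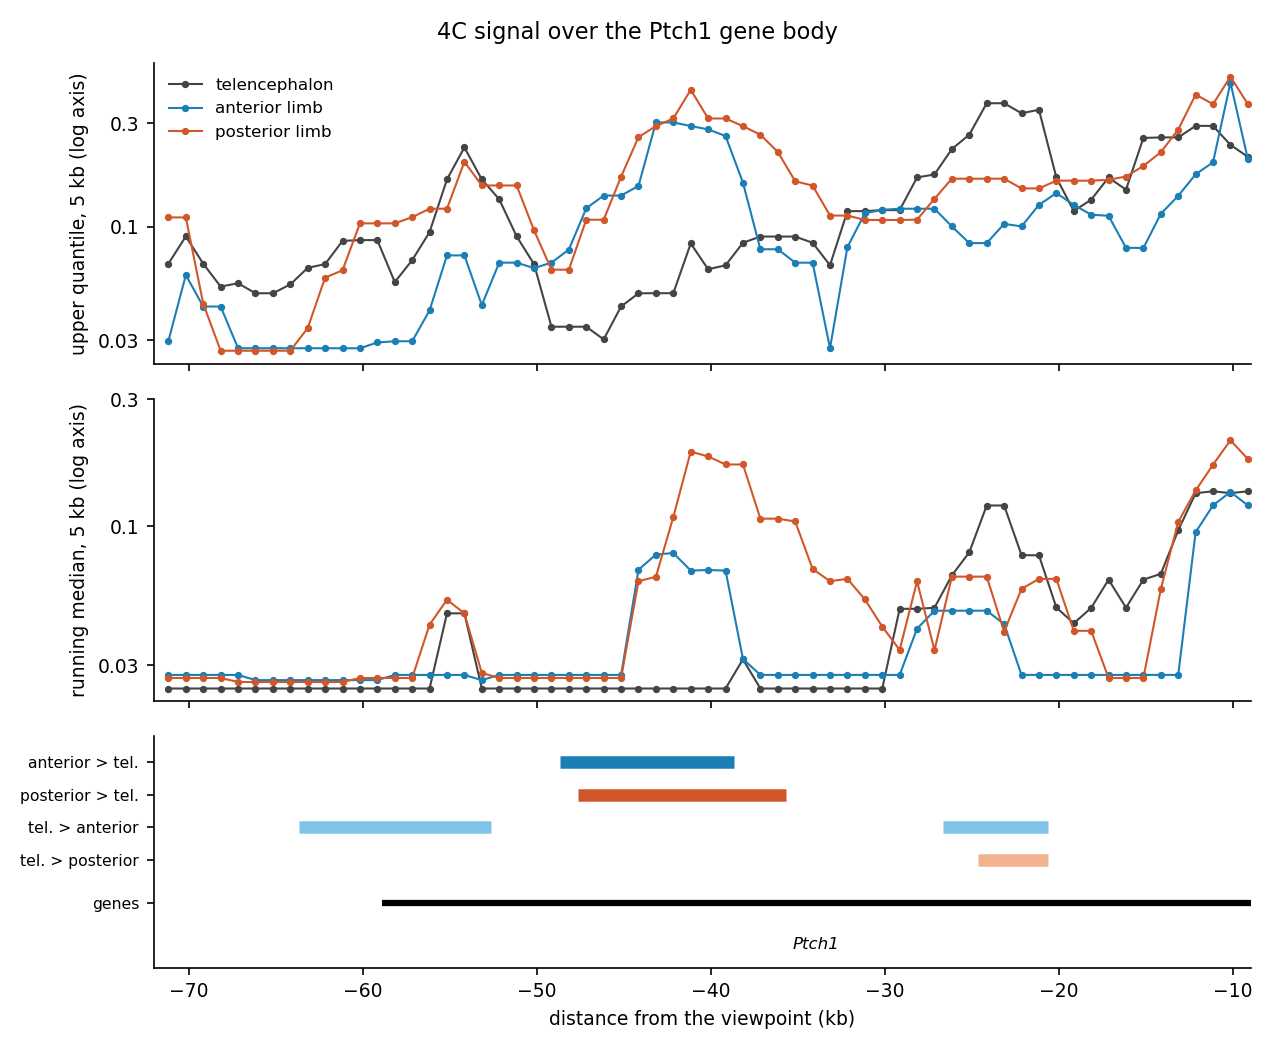
The upper quantile and the running median in 5 kb windows (log axes) are plotted against distance from the viewpoint in kb along the Ptch1 body from 9.16 kb outward, with a point per position and library and bars for the intervals. Both limb lines have a broad maximum between 44.2 and 39.2 kb away, where telencephalon is low, and over the stretch plotted the upper quantile of telencephalon is highest between 24.2 and 21.2 kb.

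Upstream of the promoter, posterior limb had a raised upper quantile in a series of intergenic stretches that were near the repeated level in telencephalon. Fold differences by the running median were smaller. Of its 12 intervals 11 were there, and in 3 of the 6 ranked highest every telencephalon position read 0.0245. The highest fold was at 63817984 to 63822984, 149 to 154 kb from the viewpoint. The mean was 0.157 in posterior limb, 0.0398 in anterior limb and 0.0260 in telencephalon, so that posterior limb was 6.05-fold above telencephalon as deposited and 5.52-fold scaled. Telencephalon was at its repeated level at 5 of the 6 positions, and anterior limb was 1.53-fold above telencephalon. At its highest position posterior limb reached 0.200, 8.15-fold above telencephalon. By the running median the interval was 1.73-fold above telencephalon, where the medians of the whole profiles differed by 1.34.

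The next intervals by fold lay between Ercc6l2 and Hsd17b3. At 64100984 to 64105984, 432 to 437 kb away, all positions read 0.0245 in telencephalon and 0.0276 in anterior limb, and posterior limb averaged 0.133. Posterior limb was 5.41-fold above telencephalon and 4.94-fold scaled, and both other libraries were at their repeated level throughout. At 64069984 to 64073984, 401 to 405 kb away, the means were 0.0245, 0.0351 and 0.126 in telencephalon, anterior and posterior limb. Posterior limb was 5.13-fold above telencephalon and 4.69-fold scaled, and anterior limb 1.43-fold above it. At 64077984 to 64079984, 409 to 411 kb away, the means were 0.0245, 0.0400 and 0.0973, and posterior limb was 3.97-fold above telencephalon and 3.62-fold scaled. By the running median these 3 intervals were 1.39-fold, 1.38-fold and 1.37-fold above telencephalon in the order given, about the ratio of the whole profiles.

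About 382 to 386 kb upstream, and again at the edge of the span, intervals were called in both limb parts. In the former, from 64050984 to 64054984, the means were 0.109 in posterior limb, 0.0518 in anterior limb and 0.0258 in telencephalon. Posterior limb was 4.22-fold above telencephalon and 3.85-fold scaled. By the running median it was 1.16 times telencephalon, under the 1.34 by which the whole profiles differed. In its inner part, 64051984 to 64053984, anterior limb read 0.0667 against 0.0245 in telencephalon, 2.72-fold and 2.42-fold scaled, and posterior limb 0.134. There anterior limb was 1.17 times telencephalon by the running median, under the 1.36 of the whole profiles. By the mean upper quantile the order, lowest first, was telencephalon, anterior limb, posterior limb in both stretches. By the running median, anterior limb (0.0271 and 0.0276) stood above posterior limb (0.0267 and 0.0269).

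Further anterior limb intervals lay upstream. At 63692984 to 63694984, 23.8 to 25.8 kb from the viewpoint, anterior limb read 0.0922, posterior limb 0.0540 and telencephalon 0.0275. Anterior limb was 3.35-fold above telencephalon and 2.98-fold scaled, and posterior limb 1.96-fold and 1.79-fold, below the threshold. At 64136984 to 64138984, 468 to 470 kb away, each of the 3 positions gave the same values in telencephalon (0.0492) and anterior limb (0.121), 2.47-fold apart and 2.19-fold scaled, and posterior limb averaged 0.116. Of the 48 widths, this interval reached 2-fold on both scales only at 5 kb. At 64193984 to 64196984, 525 to 528 kb away, anterior limb read 0.0842, posterior limb 0.0596 and telencephalon 0.0245 at every position. Anterior limb was 3.43-fold above telencephalon and 3.05-fold scaled, but this interval lies at the edge of the span and only 5 window widths cover it. By the running median, anterior limb was 1.12, 1.21 and 1.41 times telencephalon in these intervals, in the order given. The medians of the whole profiles differed by 1.36.

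The folds against a repeated level are relative to that level. Telencephalon was at its most frequent value at 65 of the 85 posterior calls (76.5%) and 27 of the 43 anterior calls (62.8%), against 79.5% over all its positions. Anterior limb was there at 6 of the 28 telencephalon calls over it (21.4%, against 77.3%), and posterior limb at 9 of 14 (64.3%, against 72.1%). The Ptch1 intervals called for either limb part over telencephalon held 0 such positions. The number of NlaIII fragment ends that occur once in the reference was at least 26 in every window of the 21 intervals, where 5 kb windows of the span had a median of 49 and a 5th percentile of 25.

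**Figure D3:**
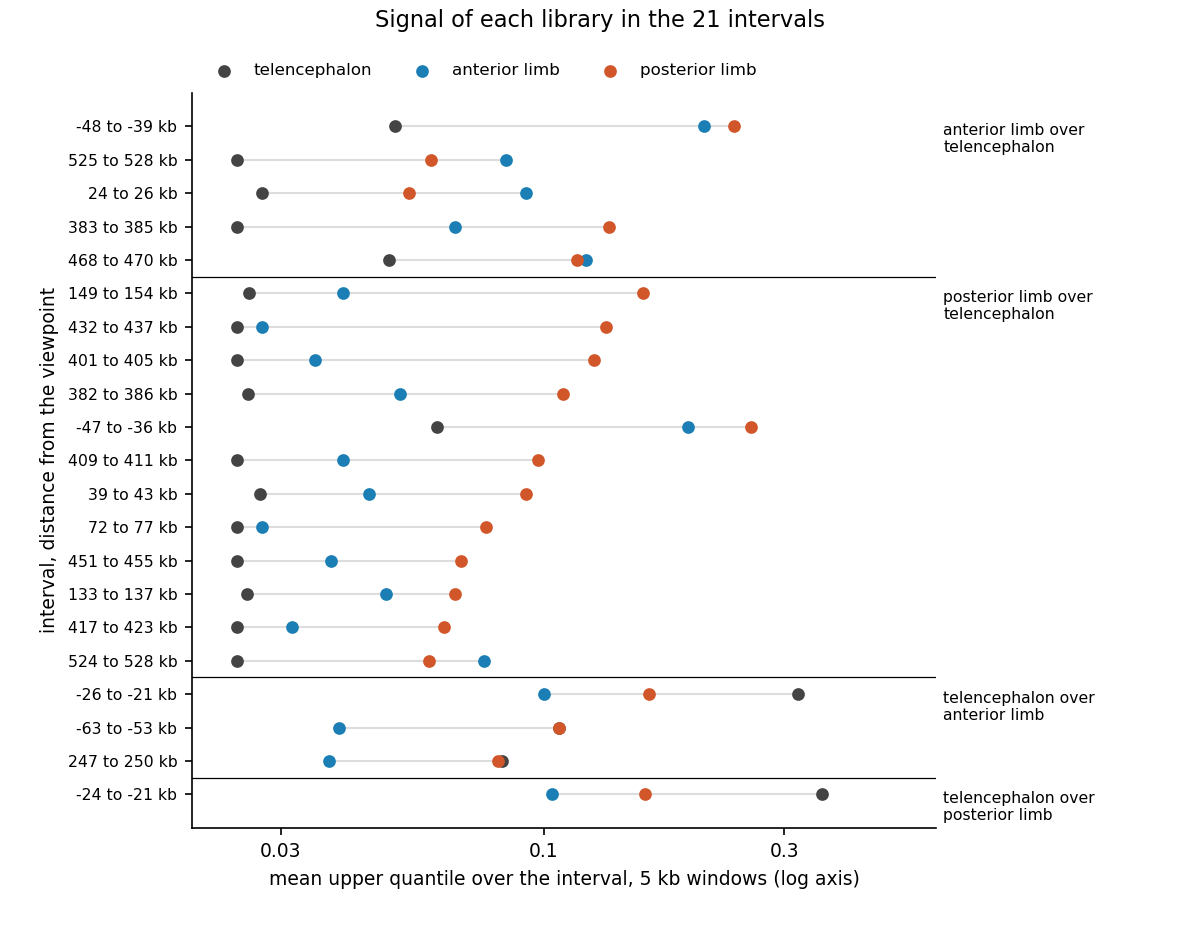
The mean upper quantile over each of the 21 intervals (log axis) is shown for the 3 libraries as points joined by a line, ordered by fold within each of the 4 comparisons and labelled by distance from the viewpoint in kb. In the intergenic posterior limb intervals telencephalon sits between 0.0245 and 0.0272, and in the telencephalon intervals anterior limb is the lowest point.

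The Gli consensus was looked for because Ptch1 is a target of GLI factors. The 9 letters GACCACCCA, searched on both strands as the only motif, occurred 17 times in the span. Within 10 kb of the viewpoint there were 3 matches, at the upstream end of the gene. The one listed below as upstream flank lies upstream of the viewpoint and still inside the annotated span of Ptch1. The stretches behind posterior limb intervals, extended by 2.5 kb for the window, held 3 matches, each in a different stretch, and those behind the anterior limb and the telencephalon intervals held 0. The share of all stretches of the same length in the span with a match was 15.8% for the 10 kb stretches of the first 2 below and 17.4% for the 11 kb stretch of the third. The sequences shown are the matches in posterior limb intervals, which ranked first, second and eleventh of 12 by fold, and below them those beside the promoter. The other 9 posterior limb intervals held no match. Each sequence has the motif in capitals, 30 bases on either side, and is written 5′ to 3′ on the strand that carries the motif (mm9).
149 to 154 kb, plus strand, chr13:63821015-63821083: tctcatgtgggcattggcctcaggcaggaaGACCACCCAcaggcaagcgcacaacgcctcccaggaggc
432 to 437 kb, plus strand, chr13:64104589-64104657: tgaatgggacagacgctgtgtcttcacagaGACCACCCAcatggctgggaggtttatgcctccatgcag
417 to 423 kb, minus strand, chr13:64089813-64089881: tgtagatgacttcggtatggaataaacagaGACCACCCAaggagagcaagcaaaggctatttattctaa
Ptch1 body side, plus strand, chr13:63667713-63667781: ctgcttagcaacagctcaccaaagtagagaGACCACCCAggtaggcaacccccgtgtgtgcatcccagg
Ptch1 upstream flank, minus strand, chr13:63670563-63670631: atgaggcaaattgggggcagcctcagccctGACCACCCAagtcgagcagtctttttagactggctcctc
Above the most upstream start, minus strand, chr13:63674743-63674811: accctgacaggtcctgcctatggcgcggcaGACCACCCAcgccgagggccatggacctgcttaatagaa

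The 3 distal matches lie in intervals called for posterior limb, so the differences at them restate that choice. At the position nearest the match 152 kb away, telencephalon read 0.0245, anterior limb 0.0436 and posterior limb 0.200. At the match 435 kb away, posterior limb read 0.191 and was 7.79-fold above telencephalon, with anterior limb at 0.0276. At the match 421 kb away, posterior limb read 0.0618 and was 2.52-fold above telencephalon. The other matches gave no common pattern. Those 334 and 360 kb upstream, and all those on the body side beyond Ptch1, were at the repeated level in every library. At the matches 17.7 and 49.4 kb upstream telencephalon read 0.0494 and 0.0490, above the 0.0269 and 0.0278 of posterior limb, which was 0.544 and 0.567 times telencephalon. That 464 kb upstream read 0.0539 in posterior limb, 0.0313 in anterior limb and 0.0428 in telencephalon. A match is a description of letters and was not tested as a binding site.

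Of the 4 protein-coding gene starts in the span, those of Ptch1, Fancc and Hsd17b3 were under 2-fold apart between either limb part and telencephalon. At the Ptch1 start the upper quantile was 0.993 in posterior limb, 0.782 in anterior limb and 0.904 in telencephalon. At the start of Fancc, 70.6 kb away on the body side, it was 0.111, 0.0600 and 0.0904 in that order, so that anterior limb was 0.663 times and posterior limb 1.22 times telencephalon. At the start of Ercc6l2, a helicase-family gene, it was 0.121, 0.0435 and 0.0903. Hsd17b3, which encodes a steroid dehydrogenase, had its start in a window where each library was at its repeated level.

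By distance, the body side and the upstream side behaved differently. From 10 to 50 kb into the body the mean was 0.202 in posterior limb, 0.141 in anterior limb and 0.153 in telencephalon. Limb and telencephalon calls both fell in these 40 positions, 10 for anterior and 12 for posterior limb against 9 and 4 for telencephalon. From 50 to 100 kb the means were 0.0588, 0.0383 and 0.0598 in that order. Anterior limb was 0.640 times (0.569 scaled) and posterior limb 0.984 times (0.898 scaled) telencephalon. Telencephalon was called over anterior limb at 14 of 50 positions. Beyond 200 kb on this side, posterior limb was called at 2 positions and telencephalon at 1, and beyond 400 kb none was called in any comparison.

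Upstream, by the upper quantile, the ratio of posterior limb to telencephalon was highest beyond 400 kb and next highest from 100 to 200 kb. From 10 to 50 kb the ratio of means was 1.10 for posterior and 1.38 for anterior limb (1.00 and 1.23 scaled). From 50 to 100 kb it was 1.36 and 1.24 (1.25 and 1.10 scaled). From 100 to 200 kb it was 1.65 for posterior and 1.16 for anterior limb (1.505 and 1.03 scaled). Posterior limb was called at 12 of 100 positions there. By the running median the ratios from 100 to 200 kb were 1.37 for posterior and 1.35 for anterior limb. From 200 to 400 kb, which holds Ercc6l2, the ratios were lower, 1.21 and 1.11 (1.10 and 0.984 scaled). Beyond 400 kb the means were 0.0478 in posterior limb, 0.0340 in anterior limb and 0.0257 in telencephalon. This put posterior limb at 1.86 times (1.70 scaled) and anterior limb at 1.32 times (1.17 scaled) telencephalon. By the running median they were 1.34 and 1.35 times telencephalon, where the medians of the whole profiles differed by 1.34 and 1.36. Beyond 400 kb 36 positions were called for posterior limb (28.1% of this bin), 11 for anterior limb (8.59%) and 0 for telencephalon over either. Positions at least 2 times the own median numbered 4, 13 and 41 in telencephalon, anterior and posterior limb.

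Posterior limb kept its excess at every window width, and anterior limb did not. In 2 kb windows 120 positions were called for posterior limb (12.4%) against 38 for telencephalon (3.93%), and 62 for anterior limb (6.42%) against 47 (4.87%). In 10 kb windows the counts were 85 (8.58%) against 12 (1.21%) and 21 (2.12%) against 20 (2.02%). In 20 kb windows they were 61 (6.22%) against 1 (0.102%) and 1 (0.102%) against 14 (1.43%). In 49 kb windows only posterior limb had calls, 9 (0.945%), with 0 in the other comparisons. Posterior limb had more calls than telencephalon at 48 of 48 widths. Anterior limb had more at 9 widths, up to 10 kb, and telencephalon had more than anterior limb at 35, from 11 to 45 kb.

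**Figure D4:**
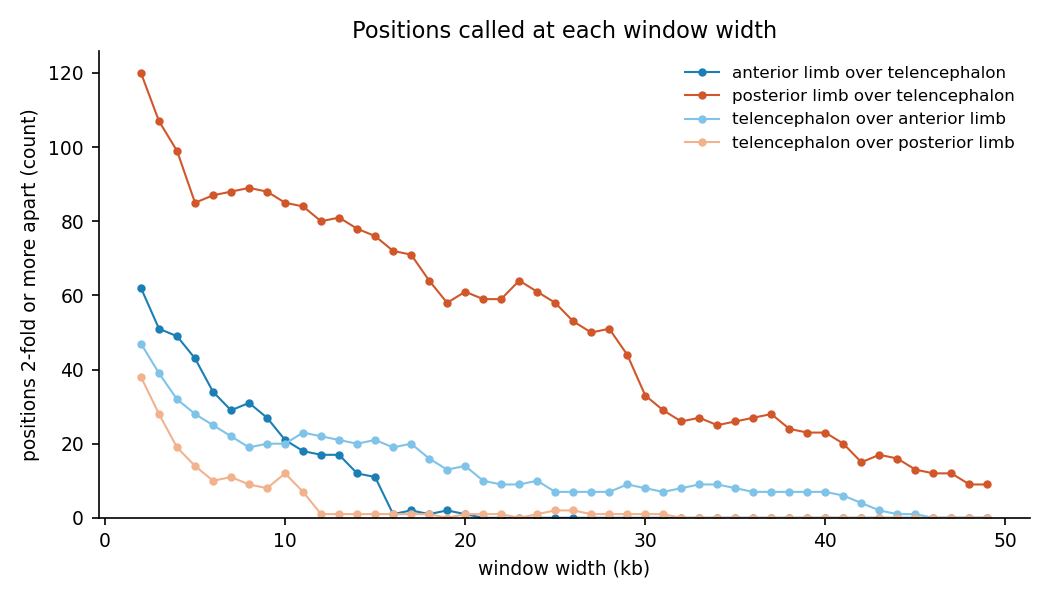
The number of positions called at each of the 48 window widths (kb) is plotted for the 4 comparisons. The posterior limb line falls from 120 at 2 kb to 9 at 49 kb and is above the other lines throughout, and the anterior limb line is at 0 from 21 kb.

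Positions called in wide windows are window centres, and each value draws on a stretch as wide as the window. In 40 kb windows the 7 positions called for telencephalon over anterior limb were centred from 63598984 to 63604984, 70.2 to 64.2 kb away. These centres lie between Ptch1 and Fancc, and the windows reach into both genes. The 7 positions averaged 0.0541 in posterior limb, 0.0282 in anterior limb and 0.0603 in telencephalon. The posterior limb calls of 49 kb windows were centred at 54.8 to 59.8 kb, where it read 0.0573 against 0.0245 in telencephalon, and at 146 to 149 kb, with 0.0548 against 0.0245. Both sets of windows also cover posterior limb intervals called in 5 kb windows. In 20 kb windows the Ptch1 body gave a run of 17 posterior limb positions, 50.2 to 34.2 kb away, with 0.218 in posterior limb, 0.113 in anterior limb and 0.0726 in telencephalon.

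Single intervals differed in how far they held as the windows widened. The posterior limb interval in the Ptch1 body was 2-fold or more above telencephalon on both scales at 29 of 48 widths, up to 30 kb, and 1.51-fold as deposited at 49 kb. The anterior limb interval in the body was so at 12 widths, up to 13 kb, and its ratio fell to 0.857 at 49 kb. The telencephalon interval at exons 4 to 8 held against anterior limb at 9 widths. The shorter one against posterior limb, at exons 4 to 6, held at 5, and its ratio went down to 0.752 at 46 kb. The telencephalon interval at the 3′ end of the gene held against anterior limb at 19 widths, up to 20 kb. Of the intergenic intervals the one at 149 to 154 kb held for posterior limb at 24 widths, up to 25 kb. The one at 409 to 411 kb was 2-fold or more on both scales at 22 widths, but not in an unbroken run. It was 1.78-fold at 10 kb and 2.65-fold at 20 kb, where the windows also take in called positions of neighbouring intervals. The intervals at 401 to 405 kb and at 432 to 437 kb each held at 10, and the anterior limb interval at 23.8 to 25.8 kb at 8. The anterior limb interval at 383 to 385 kb held at 5, and that at 468 to 470 kb at 1, the width used to call it.

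**Figure D5:**
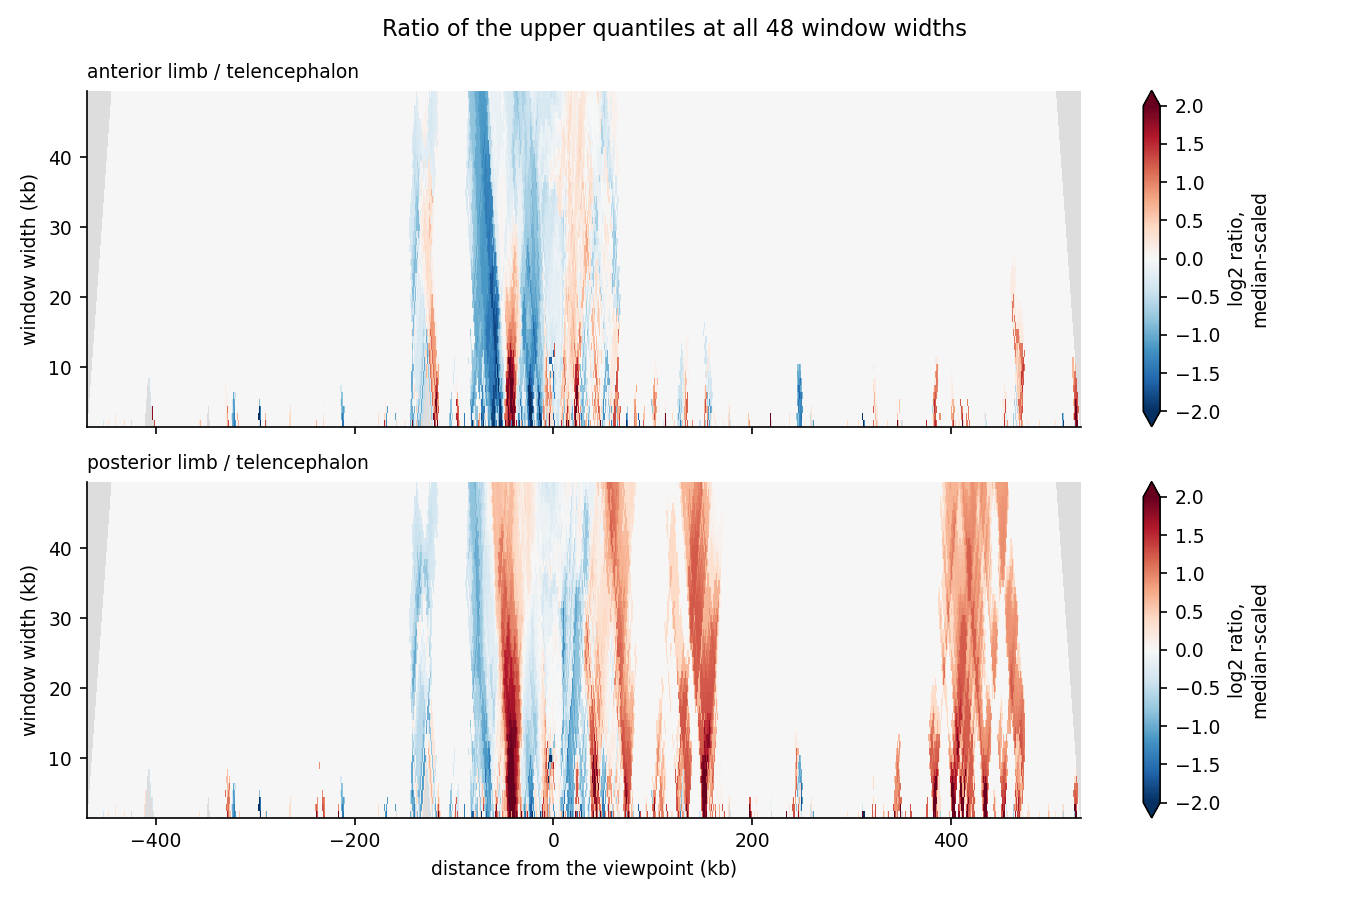
The log2 ratio of the median-scaled upper quantiles, limb over telencephalon, is drawn in colour (red for limb higher, blue for telencephalon higher, limited at 2 either way) against distance from the viewpoint in kb and window width in kb, for each limb part. Red columns in the posterior limb map reach the widest windows between 54.8 and 59.8 kb and between 146 and 149 kb upstream, and in the anterior limb map the tallest column is blue and lies on the far side of the Ptch1 body.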

How the data were processed

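The authors deposited, for each of 3 libraries, a normalised 4C signal on chromosome 13 of mm9, per the submitters' processing notes. Chromatin was cut with NlaIII and then DpnII, per the labels' protocols. Not given in the sources used here were the aligner, filters, normalisation factor, read totals and quantile levels, so depth is unknown and no counting interval was computed. Columns carry no names: widths were read from empty window ends, and median, upper and lower quantile from their order, with 0 violations. Positions were treated as window centres.

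The comparisons used Python 3.11.15, NumPy 2.4.6 and pandas 2.3.3, with figures drawn by matplotlib 3.10.9. A position was called at a fold of 2 on both scales, without an offset. The 8 positions at 0 in all libraries and the 5 empty ones have no fold. Runs of 3 or more called positions formed intervals, and intervals 1 position apart were joined. At most 6 intervals per comparison were named, ranked by the lower of both folds, with the viewpoint, every protein-coding gene start in the span and the motif in each stretch, and any other stretch or position was named after its values were seen. The calling rule was tested on simulated flat profiles without noise, with stretches raised in the limb profile. That test gives no rate of false calls in these data. The reference was NCBIM37, from which mm9 is made, with GENCODE M1, and 2 genes carry their current names, Ercc6l2 and Aopep. The comparisons, lists and rules were chosen with earlier results of these data known. Alternatives were the scaling, the quantity, the window, a fold of 3, an offset, leaving out positions within 10 kb, and windows with at least 20 unique ends.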

Additional observations from a re-analysis of the deposited data

How the results depend on the processing

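Pairs below give positions, then intervals, and the cause of each change was not tested. For anterior limb over telencephalon (43 and 5), deposited folds alone gave 8 intervals, the running median 9 and 1, the lower quantile 101 and 8, 10 kb windows 21 and 3, 20 kb windows 1 and 0, 49 kb windows 0 and 0, and a fold of 3 gave 12 and 1. For posterior limb over telencephalon (85 and 12), the running median gave 13 and 1, the lower quantile 167 positions, 20 kb windows 7 intervals, 49 kb windows 9 and 1, and a fold of 3 gave 32 and 5. For telencephalon over anterior limb (28 and 3), scaled folds alone gave 45 positions, the running median 9, the lower quantile 53, 2 kb windows 47 and 6, 20 kb windows 14 and 1, 49 kb windows 0 and 0, and a fold of 3 gave 9 and 1. For telencephalon over posterior limb (14 and 1), scaled folds alone gave 30 and 4, the running median 5 and 0, the lower quantile 54 and 5, 2 kb windows 38 and 4, 10 kb windows 2 intervals, 20 kb windows 1 and 0, 49 kb windows 0 and 0, and a fold of 3 gave 0 and 0. All other counts stayed within 1.5 times.

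Of the ratios by distance, all as deposited, 160 of 168 alternatives stayed within 1.5 times. The main ratios lay between 0.640 and 1.86, so this band is wide and a ratio within it can lose its excess. Posterior limb beyond 400 kb upstream stayed within it, though 1.86 became 1.34 by the running median, the ratio of the whole profiles. Within 10 kb on the body side, anterior limb over telencephalon (1.56) became 1.04 by the running median, 0.983 by the lower quantile, and 0.880, 0.967 and 0.893 in 10, 20 and 49 kb windows. There posterior limb (1.39) became 0.648 and 0.899 in 10 and 49 kb windows. At 50 to 100 kb anterior limb (0.640) became 1.15 by the running median.

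Among named intervals 10 of 147 alternatives reversed the order. Ratios of other quantities and windows were as deposited here. A running-median ratio above 1 but under that of the whole profiles was not counted. Anterior limb over telencephalon in the Ptch1 body became 0.857 in 49 kb windows, and posterior limb over telencephalon at 409 to 411 kb became 0.323 by the lower quantile. Telencephalon over anterior limb became 0.856 by the lower quantile at exons 4 to 8, 0.972 in 49 kb windows at the 3′ end, and at the Ercc6l2 start 0.889 by the running median and in 20 and 49 kb windows and 0.848 by the lower quantile. Telencephalon over posterior limb at exons 4 to 6 became 0.863 by the lower quantile and 0.770 in 49 kb windows. No paired analysis was possible because there is 1 library for each tissue. Without counts, the depth behind any single value is unknown.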

Other observations

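The posterior limb intervals ranked below the first 6 were all upstream and intergenic. From 63707984 to 63711984, 38.8 to 42.8 kb away, the means were 0.0920 in posterior limb, 0.0450 in anterior limb and 0.0272 in telencephalon, and posterior limb was 3.38-fold above telencephalon. From 63740984 to 63745984, 71.8 to 76.8 kb away, telencephalon (0.0245) and anterior limb (0.0276) were at their repeated levels and posterior limb averaged 0.0766. From 63801984 to 63805984, posterior limb averaged 0.0666, anterior limb 0.0485 and telencephalon 0.0257. These 3 and the interval at 149 to 154 kb are the posterior limb intervals between the Ptch1 promoter and Ercc6l2.

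Beyond Ercc6l2 the remaining ones read 0.0633 in posterior limb at 417 to 423 kb and 0.0685 at 451 to 455 kb, with 0.0245 in telencephalon at both. They were 2.58-fold and 2.80-fold above telencephalon. At 524 to 528 kb posterior limb read 0.0592 and anterior limb 0.0761 against 0.0245 in telencephalon.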
